A study of Rattus norvegicus with 8 samples.

Results

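Genes for cell adhesion and the extracellular matrix were followed in rat PC12 pheochromocytoma cells, with forskolin and without it. Forskolin switches on adenylyl cyclase, the enzyme that makes the messenger cyclic AMP. The rule that chose the genes used symbols and no measured value, though it was set with earlier results of these data known. It took collagens (Col followed by a digit), integrin alpha and beta chains (Itga, Itgb) and laminin chains (Lama, Lamb, Lamc). It also took cadherins (Cdh followed by a digit), protocadherins (Pcdh), Ncam, matrix metalloproteinases (Mmp), their tissue inhibitors (Timp) and names starting with Adamts. The last are Adamts proteases and Adamts-like genes (Adamtsl). Of 31142 probe sets on 2 chips, 200 met this rule, 122 on chip A and 78 on chip B, and they stood for 139 of 13810 genes with a symbol. Each chip was read for 2 arrays of cells with forskolin (spelled foreskolin in the array labels) and 2 arrays of cells with no forskolin, 8 arrays in all, of total RNA. Nothing else is named that either group carried. The dose, the exposure time, the control and the PC12 clone are not given, and no label says that the replicates were separate cultures, so p-values measure only the spread between these arrays, which may be technical.

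Collagens and laminins are built from several chains each. Collagens form the fibrils and sheets of the matrix, and laminins are cross-shaped glycoproteins of basement membranes on which neurons extend processes. Integrins, made of an alpha and a beta chain, bind these ligands from the cell surface and pass the contact on to adaptors at the membrane. Cadherins and protocadherins hold cells to each other through calcium-dependent contacts, and Ncam proteins do so without calcium. Mmp and Adamts enzymes cut matrix proteins, and Timp proteins block them. PC12 cells attach to collagen and laminin coats, which makes integrin ligands and receptors of interest in this line.

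The values are the authors' log2 levels, 1 per probe set and array. The array medians were 8.15 to 8.17 on chip A and 6.77 to 6.79 on chip B. Arrays of the same group correlated across probe sets at 0.9991 to 0.9992 on chip A, above the 0.9968 to 0.9972 between groups, while on chip B the ranges overlapped (0.9939 to 0.9964 within groups and 0.9941 to 0.9957 between them). Of 10 genes listed as PC12 and chromaffin cell markers, 7 were tested, with changes from -0.02 (Scg2) to 0.41, and 4 were higher and 0 lower at an unadjusted p under 0.05. All 7 were read on chip A, where the shares passing that limit were 7.10% upward and 10.3% downward over all tested probe sets. Of the 4 higher markers the homeobox factor Phox2a rose by 0.41 (log2, limma adjusted p = 1.02e-04), while Th (0.11), Chga (0.12) and Chgb (0.15) were not called. The markers tested on chip A, taken back from log2 and added up, gave 21228 and 20874 with forskolin against 18741 and 19210 without. Bright probe sets weigh most in such a sum, and it includes the called Phox2a, at 12.43 with forskolin and 12.02 without. It is therefore no reading of the markers as a group. None of the tested markers of fibroblasts (5 of 9 genes), glia (4 of 7), adrenal cortex (3 of 7), endothelium (2 of 5) or blood (3 of 5) was called by limma, and 0 had an unadjusted p under 0.05. On chip A the linear sums were 2052 and 2012 with forskolin against 2030 and 2033 without for 3 fibroblast markers, and 341 and 353 with forskolin against 331 and 320 without for 2 adrenal cortex markers. All 3 tested adrenal cortex markers (Cyp11a1 0.11, Cyp21a1 0.07, Nr5a1 0.12) had both forskolin arrays above both arrays without forskolin. So did 20.4% of all tested probe sets on chip A, where Cyp11a1 and Cyp21a1 were read, and 10.4% on chip B, where Nr5a1 was. Whether such markers play a part in any result was not tested.

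A smaller share of the adhesion and matrix probe sets than of the whole chips was bright enough to be tested. The filter removed the dimmest 30% of each chip by the mean over its 4 arrays, which set its limit at 7.02 (log2) on chip A and 6.02 on chip B. On chip A 67 of 122 members passed (54.9%) and on chip B 45 of 78 (57.7%), where 70.0% of each whole chip passed. These 112 probe sets cover 88 of the 139 genes. By family the share ran on chip A from 5 of 14 cadherin and 7 of 18 Mmp probe sets to 8 of 10 probe sets named Itgb, and on chip B, among families with more than 1 probe set, from 4 of 15 for protocadherins to 5 of 6 for Mmp. The single Timp probe set of chip B passed, and its single Ncam probe set did not. Levels of different probe sets are not comparable, since each probe set binds with its own strength, and no detection calls were used here, so a dim probe set is not shown to lack its transcript.

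**Figure D1:**
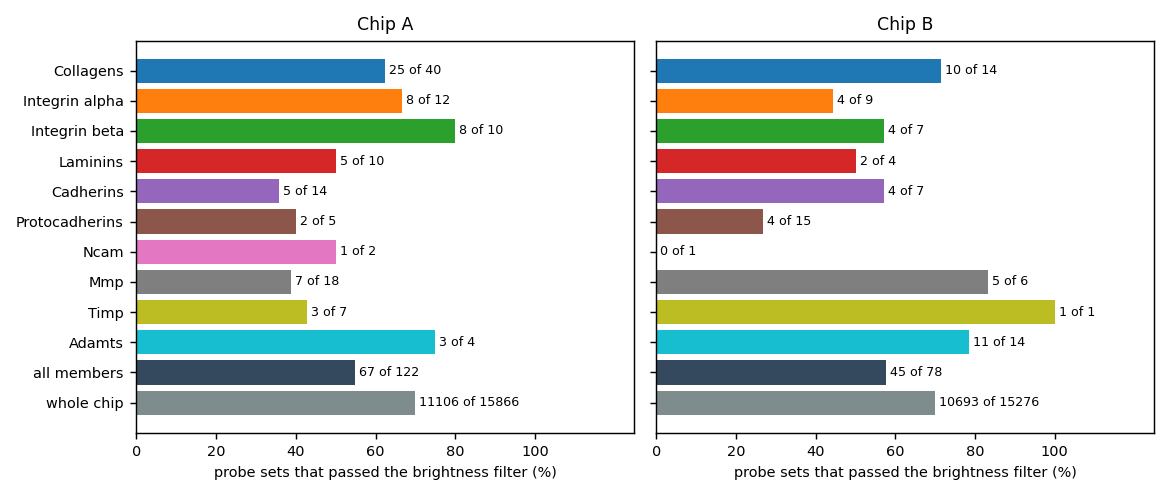
Share of the probe sets of each family that passed the brightness filter (horizontal axis, percent) on chip A (left) and chip B (right), with the counts beside each bar. All members lie at 54.9% on chip A and 57.7% on chip B, against 70.0% for each whole chip.

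Of the 88 genes tested, 1 was called. Lama5, which encodes the laminin alpha 5 chain of basement membranes, rose 1.34-fold on chip A, and the other 66 tested members there and all 45 on chip B were not called by limma at an adjusted p under 0.05. On chip A that is 1 member higher of 67, where 2.03% of all tested probe sets were called higher, and 0 lower, where 1.26% were called lower. At an unadjusted p under 0.05, 6 members were higher and 1 lower on chip A (background 7.10% and 10.3%). On chip B 0 members were called higher (background 0.150%) and 0 lower (background 0.00935%), with 0 higher and 1 lower at an unadjusted p under 0.05 (background 1.64% and 3.33%, and 4.97% for either). Both forskolin arrays lay above both arrays without forskolin in 19 chip A members (background 20.4%) and below both in 9 (background 28.0%, and 48.5% for either). On chip B these counts were 3 (background 10.4%) and 4 (background 22.2%). The median change of the tested members was 0.02 on chip A and 0.00 on chip B, beside -0.01 and -0.03 over all tested probe sets.

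The intervals bound the size of the changes only as far as the spread between these arrays goes, which may be technical. They cover the tested probe sets and not the 88 members below the filter. The 95% interval of the log2 change (limma, for each probe set by itself) lay within 1.5-fold in either direction for 67 of 67 tested members of chip A and 45 of 45 of chip B. Within 1.3-fold it lay for 66 of 67 on chip A (all but Lama5) and for 38 of 45 on chip B, where the median half-interval over the members was 0.22 against 0.11 on chip A. Changes under 0.1 in size were measured in 58 chip A members (86.6%, beside 81.0% of all tested probe sets) and in 34 chip B members (75.6%, beside 68.1%).

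**Figure D2:**
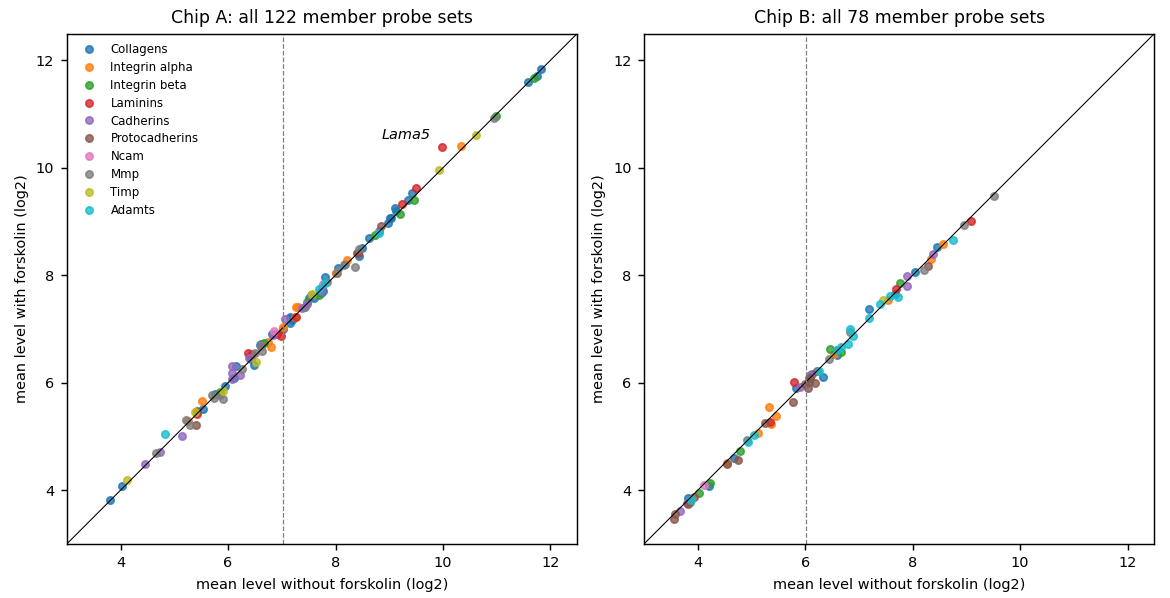
Mean level of each member probe set with forskolin (vertical axis, log2) against its mean level without forskolin (horizontal axis, log2) on chip A (left, 122 probe sets) and chip B (right, 78), coloured by family; the solid line marks equal levels and the dashed line the level of the filter. The points follow the line of equal levels, and the labelled Lama5 probe set, at 10.39 with forskolin and 9.97 without, stands off it.

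Laminins are trimers of 1 alpha, 1 beta and 1 gamma chain. On the tested Lama5 probe set the levels were 10.38 and 10.41 with forskolin, against 9.95 and 10.00 without. The groups are well apart, and the arrays of each group lie within 0.1 of each other. The rise was 0.42 ± 0.04 (log2, SE, n = 2 arrays per group, 95% interval 0.33 to 0.51), with limma adjusted p = 3.58e-04. Whole cultures were measured, so a shift in the share of cells and a shift per cell cannot be told apart. The result rests on 1 of 3 Lama5 probe sets. The second on chip A, below the filter, read 6.56 and 6.55 with forskolin, against 6.41 and 6.33 without, a difference of 0.19. Its groups did not overlap either, and fitted without the filter it had limma adjusted p = 0.146. The third, on chip B and also below the filter, read 5.25 and 5.27 with forskolin, against 5.42 and 5.27 without, and its groups touched.

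**Figure D3:**
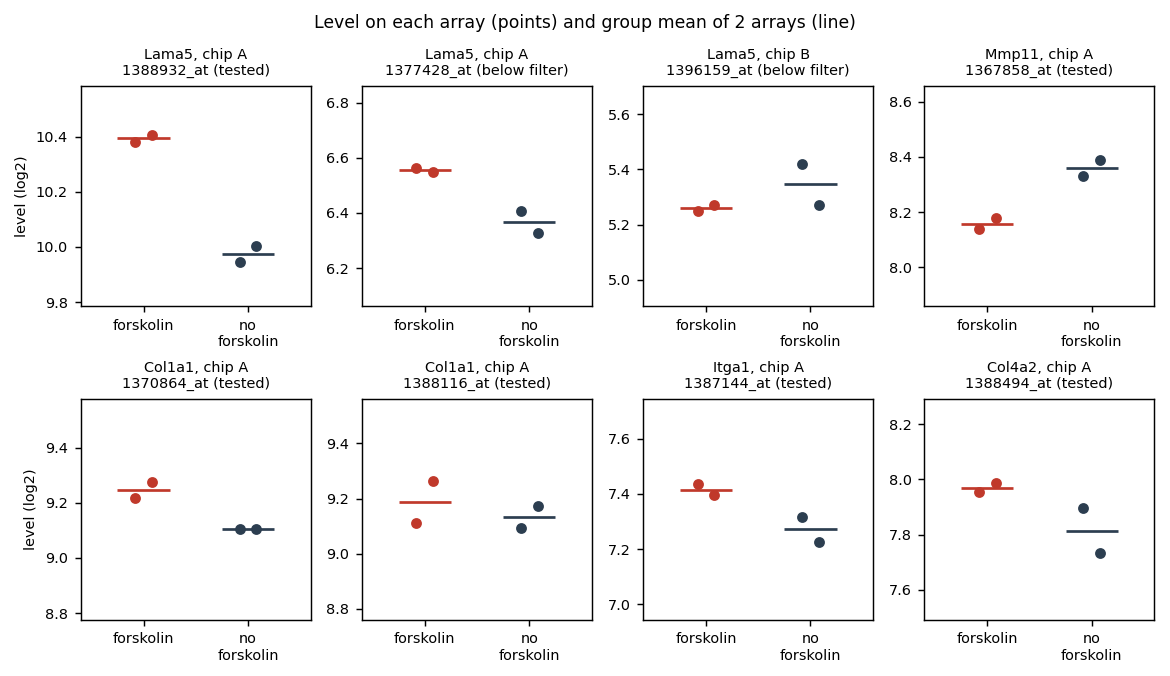
Level on each array (points, vertical axis, log2) and mean of 2 arrays (line) for 8 member probe sets, forskolin left and no forskolin right in each panel; every panel spans 0.8 log2 units. Lama5 on the tested chip A probe set separates the groups by 0.42, and Mmp11 lies lower with forskolin by 0.20 without a call.

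The Lama5 promoter is shown because Lama5 was the member called, and that of Lamb3 because it holds the full cyclic AMP response element and its gene was not called. The stretches are the 250 bases before the RefSeq start on assembly GRCr8, at chr3:187695975-187696224 (minus strand) for Lama5 and at chr13:107362303-107362552 (plus strand) for Lamb3, each 5′ to 3′ along its gene. Capitals mark TGACGTCA, the element bound by CREB factors, or its core TGACG.
Lama5: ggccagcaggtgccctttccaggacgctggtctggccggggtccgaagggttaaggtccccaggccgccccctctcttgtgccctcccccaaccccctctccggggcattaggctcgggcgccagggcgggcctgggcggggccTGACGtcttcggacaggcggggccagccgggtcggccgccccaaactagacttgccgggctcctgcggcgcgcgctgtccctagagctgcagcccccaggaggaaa
Lamb3: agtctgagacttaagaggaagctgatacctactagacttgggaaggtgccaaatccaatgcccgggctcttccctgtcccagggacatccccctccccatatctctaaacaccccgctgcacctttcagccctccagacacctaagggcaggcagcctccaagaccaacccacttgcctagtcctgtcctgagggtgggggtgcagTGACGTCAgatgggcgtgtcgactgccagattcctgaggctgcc
The core in Lama5 starts at position -106 and the full element in Lamb3 at -44, counted from the start. Both motifs were searched on both strands from 250 bases before the start to 50 after it, and every full element also holds the core. The full element was found in 2 of the 100 member genes with a promoter in the table (2.0%), Lamb3 and Col24a1, beside 549 of 27457 genes in all (2.00%). The core was found in 16 of 100, beside 23.0% of all genes. Col24a1, a fibril-forming collagen tested on chip B, measured 0.01. These letters are a description of the windows and no evidence of binding.

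The chains that can join laminin alpha 5 were not called. Lamc1, the gamma 1 chain, read 9.57 and 9.67 on 1 probe set with forskolin, against 9.51 and 9.49 without, a difference of 0.12 (95% interval 0.01 to 0.22, limma adjusted p = 0.230). Its other probe set measured 0.09 (adjusted p = 0.333). On both, the forskolin arrays lay above the arrays without forskolin. Lamb2, the beta 2 chain, measured -0.01 (interval -0.11 to 0.08), and Lamb1, the beta 1 chain, was below the filter with a difference of 0.00. Lama3, the alpha chain of the laminin of epithelial anchors, measured -0.04. Lamb3, its beta chain, read 9.02 and 8.997 on chip B with forskolin, against 9.03 and 9.14 without. That is a change of -0.07 ± 0.08 (SE).

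The alpha chain largely decides which ligand an integrin binds. Of 8 tested probe sets on chip A 0 were called, with changes of -0.01 to 0.14. Itga1, which pairs with beta 1 to bind collagen and laminin, read 7.44 and 7.40 with forskolin, against 7.32 and 7.23 without. The groups did not overlap, and the difference of 0.14 ± 0.05 (SE) was not called (limma adjusted p = 0.207, interval 0.02 to 0.26). Itga3, a laminin receptor chain, measured 0.06 (interval -0.03 to 0.16). Itga7, another laminin receptor chain, measured 0.09 and -0.01 on its 2 tested probe sets. Itga6 measured 0.02 on the 1 of its 4 probe sets that was tested, at a level of 7.03, near the filter limit of 7.02. On chip B the 4 tested probe sets measured -0.03 to 0.03. Itgav, the chain of vitronectin receptors, had the largest standard errors of the tested members: 1 probe set read 8.24 and 8.35 with forskolin, against 8.01 and 8.66 without. Its other probe set read 8.52 and 8.65 with forskolin, against 8.34 and 8.78 without. In both, the 2 arrays without forskolin lie outside the forskolin arrays on either side, and the intervals reach -0.48 to 0.41 and -0.31 to 0.37.

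Among the Itgb names 8 probe sets were tested on chip A and 4 on chip B, with 0 calls by limma and 0 at an unadjusted p under 0.05. Itgb1, the beta chain shared by the collagen and laminin receptors above, read 11.68 and 11.67 with forskolin, against 11.69 and 11.71 without. Its change was -0.03 (interval -0.10 to 0.04), and the other probe set measured -0.02. Itgb5, a partner of the alpha v chain, measured 0.04 and 0.02 on chip A. On chip B it read 6.57 and 6.68 with forskolin, against 6.37 and 6.57 without, 0.16 ± 0.10 (SE, limma adjusted p = 0.977). Of the 12 tested Itgb probe sets 4 carry names that match only by letters. They are Itgb1bp1, which encodes a protein that binds the tail of beta 1 integrin, at -0.05 and -0.01, and Itgb3bp, a centromere protein gene, at -0.06 on both probe sets. The untested Itgb1bp2 and Itgbl1 encode no integrin chain either. Without these Itgb names, and with the Adamtsl names kept, the median change of the tested members was 0.03 on chip A and 0.00 on chip B.

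**Figure D4:**
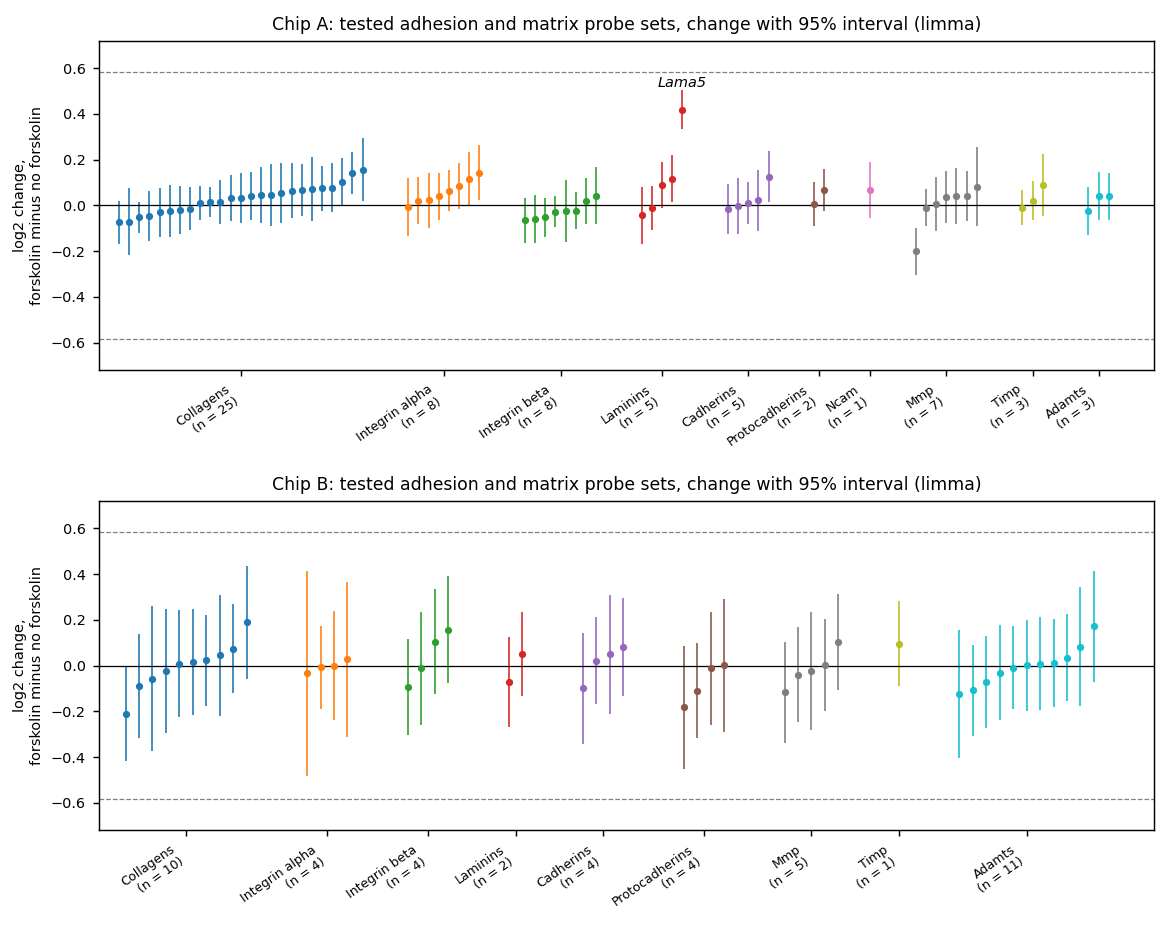
Change of each tested member (vertical axis, log2, forskolin minus no forskolin) with its 95% limma interval, on chip A (top, 67 probe sets) and chip B (bottom, 45), ordered by size within each family; dashed lines mark 1.5-fold. All intervals lie between the dashed lines, and Lama5, labelled, is the only member called.

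Collagens were the most numerous family, with 25 probe sets tested for chip A, 10 for chip B, and 0 called by limma. On chip A 2 of the 25 were higher at an unadjusted p under 0.05 (8.0%, beside 7.10% of all tested probe sets), near the share of the chip. The changes ran from -0.07 to 0.16 around a median of 0.03. Col1a1, the main chain of type I collagen, read 9.22 and 9.27 with forskolin, against 9.11 and 9.11 without. These groups did not overlap, and the difference was 0.14 ± 0.04 (SE, limma adjusted p = 0.125). The other Col1a1 probe set, at 9.11 and 9.26 with forskolin against 9.10 and 9.17 without, overlapped and measured 0.05. Col1a2, the partner chain, was below the filter on both of its probe sets, with differences of 0.10 and -0.01.

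Col4a2, a chain of the type IV network of basement membranes, read 7.95 and 7.99 with forskolin, against 7.89 and 7.73 without. Its difference of 0.16 ± 0.06 (SE) was not called (limma adjusted p = 0.230). Without no forskolin replicate 1, the higher of the 2, it was called at 0.24 (adjusted p = 0.0414, range over all alternatives 0.0414 to 0.734). Its neighbour and partner chain Col4a1 measured 0.04 on its tested probe set and 0.09 on the one below the filter. Col2a1, the cartilage collagen, read 6.16 and 6.07 on chip B with forskolin, against 6.33 and 6.32 without. That difference of -0.21 ± 0.09 (SE) had unadjusted p = 0.0440 and limma adjusted p = 0.977, while Col2a1 on chip A measured 0.07. The fibrillar chains Col3a1 and Col5a2 were among the brightest members and were not called. Col3a1 read 11.83 and 11.84 with forskolin, against 11.81 and 11.83 without, and Col5a2 measured -0.05 and 0.01.

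Of the cadherins, 5 probe sets were tested on chip A and 4 on chip B. Cdh13, a cadherin held by a lipid anchor, read 7.17 and 7.21 with forskolin, against 7.05 and 7.08 without. The groups did not overlap, and the change of 0.13 ± 0.05 (SE) was not called (limma adjusted p = 0.236). Its 2 dimmer probe sets differed by -0.07 and 0.11. Cdh2, N-cadherin of neural cells, read 7.90 and 7.70 on chip B with forskolin, against 7.98 and 7.81 without, a change of -0.10 ± 0.10 (SE) with overlapping groups. On chip A its brighter probe set, below the filter, read 6.28 and 6.32 with forskolin, against 6.14 and 5.997 without. The dimmer chip A probe set read 4.73 and 4.67 with forskolin, against 4.76 and 4.72 without. The brighter chip A probe set thus differs in sign from the other 2 probe sets of Cdh2, and none was called.

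Protocadherins passed the filter with 4 of 15 probe sets on chip B and 2 of 5 on chip A. Pcdhb12 read 8.93 and 8.92 with forskolin, against 8.87 and 8.84 without, 0.07 ± 0.04 (SE). It belongs to the clustered protocadherins, whose near-identical sequences can share signal, so its identity is uncertain. Pcdh20 on chip B read 6.09 and 5.91 with forskolin, against 6.07 and 6.29 without, -0.18 ± 0.11 (SE), with groups that overlap. Ncam1, the neural cell adhesion molecule, read 7.77 and 7.89 with forskolin, against 7.73 and 7.79 without, 0.07 ± 0.05 (SE), and its dimmer probe set differed by 0.11. Ncam2 was below the filter on chip B, with levels of 4.22 and 3.96 with forskolin against 4.15 and 4.10 without.

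Among the proteases, Mmp11, a secreted enzyme also called stromelysin 3, came nearest to a call below 0. It read 8.14 and 8.18 with forskolin, against 8.33 and 8.39 without. Both forskolin arrays were lower, by 0.20 ± 0.05 (log2, SE, interval -0.30 to -0.10, limma adjusted p = 0.0573). It was called lower under quantile normalization (limma adjusted p = 0.0303) and with median centring (0.0234), and also without no forskolin replicate 1 (0.0446). Over all alternatives its adjusted p ran from 0.0234 to 0.209. Mmp14, which sits in the membrane and activates Mmp2, measured -0.01 on chip A and -0.02 on chip B, and Mmp2 measured 0.01. Mmp19 on chip B read 8.10 and 8.11 with forskolin, against 8.11 and 8.32 without, -0.12 ± 0.09 (SE).

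Of 4 tested Timp probe sets 0 were called by limma, and 0 had an unadjusted p under 0.05. Timp2, which also helps Mmp14 activate Mmp2, read 10.59 and 10.62 with forskolin, against 10.62 and 10.60 without, on its brighter probe set, a change of -0.01 (interval -0.09 to 0.07). Its other probe set measured 0.02. Timp3, which binds to the matrix, measured 0.09 ± 0.06 (SE) on its tested probe set, and its 3 dimmer ones differed by -0.06 to 0.09. Timp4 on chip B measured 0.10 ± 0.08 (SE). Timp1 was below the filter, with 6.45 and 6.31 with forskolin against 6.52 and 6.51 without. Of the Adamts names, 3 probe sets were tested on chip A and 11 on chip B, with 0 calls by limma and 0 at an unadjusted p under 0.05. Adamts9, which cuts large proteoglycans, measured 0.04 on chip A and 0.08 on chip B. Adamtsl2, an Adamts-like protein without protease activity, read 6.91 and 7.09 with forskolin, against 6.73 and 6.93 without, 0.17 ± 0.10 (SE).

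The 55 chip A members below the filter differed by -0.20 to 0.23 between the groups, and the 33 on chip B by -0.19 to 0.22. Fitted without the filter, 0 of them were called by limma on either chip, with 0.525% and 0.0218% of all probe sets below the filter called there. At an unadjusted p under 0.05 there were 7 on chip A (12.7%, beside 10.9% of all probe sets below the filter) and 1 on chip B (3.03%, beside 4.36%). For 22 genes more than 1 probe set was tested, and the changes of a gene's probe sets differed by a median of 0.04 and by at most 0.28, in Col2a1. Counted as genes through the brightest tested probe set, 1 of 88 rose and 0 fell.

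Genes of related pathways outside the chosen families were taken from 7 lists. Of those on the chips, 14 of 27 other matrix glycoproteins, 14 of 22 proteoglycans and 14 of 17 collagen-modifying enzymes were tested. So were 22 of 23 integrin adaptors and focal adhesion genes and 10 of 11 catenin and desmosome genes. The last 2 lists had 17 of 27 adhesion molecules and 9 of 14 protease regulators tested. Of the 100 tested, 1 rose and 1 fell. Both calls were among the 90 genes read on chip A, where 3.30% of all tested probe sets were called, and 0 of the 10 read on chip B were called, where the share was 0.159%. These counts do not set the lists apart from the chips as a whole. Bcar1, an adaptor that links integrins to kinase signalling, read 9.55 and 9.65 with forskolin, against 9.34 and 9.27 without, and rose by 0.30 ± 0.05 (log2, SE, limma adjusted p = 0.0121). It was the 1 call among 22 integrin adaptors and focal adhesion genes, and without forskolin replicate 2 its adjusted p was 0.0600 (range over all alternatives 0.00103 to 0.0792). Ccn2, a matrix-associated growth regulator, read 8.26 and 8.24 with forskolin, against 8.47 and 8.57 without. It fell by 0.27 (SE 0.05, limma adjusted p = 0.0187), the 1 call among 14 other matrix glycoproteins. That call was lost without forskolin replicate 1 (0.0547), forskolin replicate 2 (0.0801) or no forskolin replicate 2 (0.0577), in a range over all alternatives of 0.00274 to 0.0874.

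None of the other 5 lists held a call by limma. At an unadjusted p under 0.05, 7.10% of all tested probe sets were higher and 10.3% lower on chip A. On chip B these shares were 1.64% and 3.33%. Of 14 proteoglycans 1 was higher and 1 lower at an unadjusted p under 0.05, with Sdc1, a cell surface heparan sulfate carrier, at 0.14 (adjusted p = 0.0906). Of 14 collagen-modifying enzymes the counts were also 1 and 1, with the lysyl hydroxylase gene Plod3 at -0.10 (0.230). Of 10 catenin and desmosome genes 0 were higher and 1 lower, Vezt of adherens junctions at -0.14 (0.181). Of 17 immunoglobulin and other adhesion molecules 2 were higher and 2 lower, with Mcam at 0.20 (0.0842). Nectin3, read on chip B, had the largest change of the 100 genes, -0.34, and was not called (limma unadjusted p = 0.0347, adjusted 0.977). Its 3 tested probe sets ran from -0.34 to 0.01. Of 9 genes of the plasminogen system and other protease regulators 1 was higher and 0 lower, Plat, the tissue plasminogen activator, at 0.15 (0.0574). Quantile normalization brought Sdc1, Mcam and Plat past the threshold as higher, at limma adjusted p = 0.0363, 0.0368 and 0.0132. Centring the array medians did so at 0.0362, 0.0256 and 0.0184, and leaving out no forskolin replicate 2 did so for Mcam at 0.00283.

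**Figure D5:**
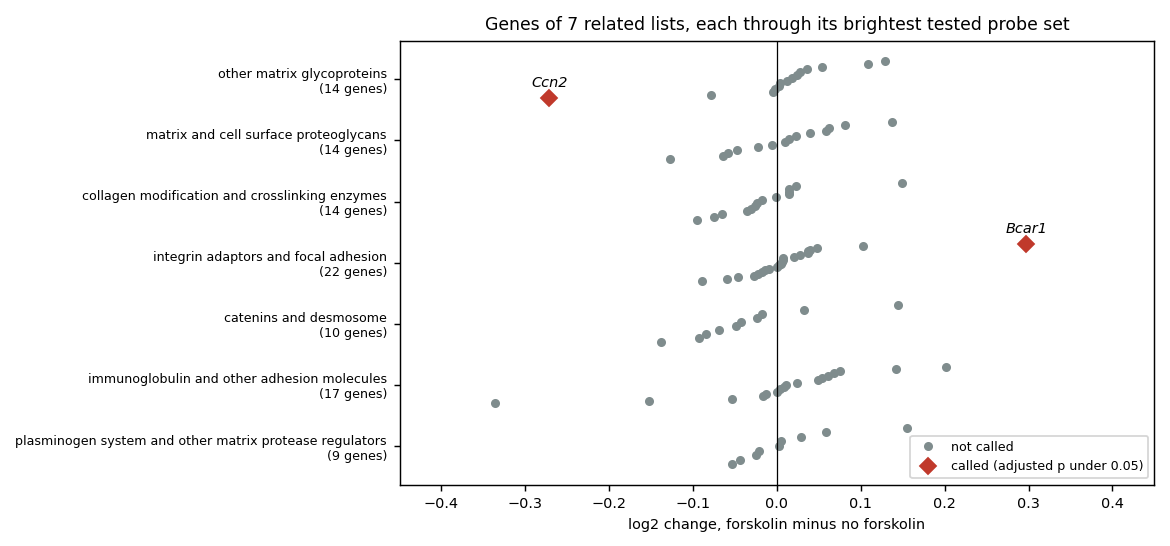
Change of each tested gene of the 7 related lists (horizontal axis, log2, forskolin minus no forskolin), 1 point per gene through its brightest tested probe set. Bcar1 at 0.30 and Ccn2 at -0.27 (diamonds) are the 2 genes called among 100.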

How the data were processed

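RNA of 8 arrays was analysed, 4 for each chip. The deposited values are log2 expression values made by the authors, 1 per probe set and array; how they were made is not given in the sources, and the log base was inferred from their range. The chips were analysed separately on the authors' scaling, whose array medians differed by at most 0.025. Probe sets under the 30th percentile of the mean linear value were left out. Forskolin was compared with no forskolin by limma 3.58.1 in R 4.3.3 (lmFit, eBayes with intensity trend, two-sided), with Benjamini-Hochberg adjustment over the tested probe sets (11106 for chip A, 10693 for chip B), and 0.05 as the threshold. "Rose", "fell" and "called" refer to this test. The number of arrays limits the precision. Symbols came from GEO's chip annotation: 12783 probe sets on chip A had 1 symbol, 312 several and 2771 none (7564, 100 and 7612 on chip B). Of the members, 121 and 77 matched RefSeq genes of GRCr8, 0 with another symbol. In lists, each gene is represented by the brightest probe set tested, with chip A before chip B.

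The members, lists and tests were chosen with earlier results of these data known. By the rule for names, the text names called members and all Timp and Ncam members. It names the tested members with the smallest p or the largest change in each family and chip, or with unadjusted p under 0.01. That limit was not set below the filter, where limma without the filter gave 5 such members on chip A and 0 on chip B. From each related list it names the calls and the smallest p. All other genes were named after their values were seen. Alternatives were quantile normalization, median centring, no filter, a filter at the 50th percentile, eBayes without trend, the replicate number as a block, leaving out each array, and membership by updated symbol. Figures were drawn with matplotlib 3.10.9.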

Additional observations from a re-analysis of the deposited data

How the results depend on the processing

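Lama5 was called under each alternative, at 0.39 to 0.45, with limma adjusted p of 3.17e-06 to 0.00551. The members called lower on chip A (0) became 1, Mmp11, under quantile normalization and with median centring. Leaving out each array gave 1 to 2 higher and 0 to 1 lower members on chip A. On chip B the count of members called was 0 under every alternative run, and membership by updated symbol or counting any called probe set of a gene moved no count. Over all probe sets of chip A, the count called lower (140) was 277 with median centring and 46 with the replicate block, and 83 to 192 without each array. On chip B the count called higher (16) was 27 under quantile normalization and 10 to 41 without each array, and the count called lower (1) was 3 under quantile normalization, 2 with the replicate block and 0 to 57 without each array. The cause was not tested. With 1 array left out, the lone array of a group is assumed to vary like the other group.

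The replicate numbers were not taken to pair the arrays, since no label says that they do. Deviations of same-numbered arrays from their group means correlated at 0.00 on chip A and 0.20 on chip B. On chip B such arrays thus tended to deviate in the same direction, and whether they were paired was not tested. The replicate block called 159 probe sets higher on chip A and 15 higher on chip B, and kept Lama5 (limma adjusted p = 0.00551); Bcar1 and Ccn2 lost their calls under it (0.0792 and 0.0874).

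Of 36 named probe sets, 8 that were not called changed sign when an array was left out. Ranges without each array were -0.0074 to 0.093 and -0.015 to 0.056 for Itgb5, -0.014 to 0.16 for Col2a1, -0.024 to 0.0053 for Timp2, -0.023 to 0.13 for Col1a1, -0.36 to 0.29 and -0.19 to 0.25 for Itgav, and -0.039 to 0.20 for Adamts9 on chip B. Under the scaling alternatives the median of all tested probe sets moved by under 0.1. The family medians kept their sign on chip A. On chip B those of the tested integrin alpha and laminin probe sets changed sign under both scalings, and that of the Mmp probe sets under quantile normalization.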
